A study of Rattus norvegicus with 18 samples.

Results

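Stac2 (ENSRNOG00000004805) was 1 of 26172 genes listed in the tables of L5 dorsal root ganglion (DRG) RNA-seq, and it was chosen by its Ensembl identifier because it was far higher after nerve injury than in naive ganglia. The contrast between injured and naive libraries, the place of the gene in the order of rises, and its spread among injured libraries all entered that choice. They are therefore given for Stac2 as a description, without a test. The injured group (SNT) was L5 DRG of male Wistar rats taken 7 days after transection of the L5 spinal nerve, which cuts the peripheral axons of the neurons of this ganglion. The control group was L5 DRG of naive male Wistar rats, and no sham-operated group was among the samples analysed. Each group had 3 libraries, each made from the pooled ganglia of several animals, and every library was sequenced in 3 runs that are named here by their labels 17 M, 25 M and 50 M. The 3 runs of a library repeat the sequencing and not the animals, so that n is 3 per group at each depth. Reads on genes ranged from 4968448 to 6154543 per library at 17 M, from 8319112 to 9951906 at 25 M, and from 15000789 to 19031166 at 50 M.

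Stac2 encodes a member of the STAC family of adaptor proteins, named for an SH3 domain and a cysteine-rich domain. STAC proteins bind L-type voltage-gated calcium channels and alter how these channels reach the membrane and inactivate. Stac3 does this in skeletal muscle, where it is needed for excitation-contraction coupling, while Stac and Stac2 are known mainly from neurons, DRG neurons included. No proteins, currents or single cells were measured in these data, and Stac and Stac3 were not analysed here.

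At 50 M, Stac2 had 20, 15 and 15 reads in naive libraries 1, 2 and 3, and 1839, 1780 and 2615 reads in SNT libraries 1, 2 and 3. After the authors' normalisation, which divided each library by its DESeq size factor, these became 19.8, 15.1 and 14.4 normalised counts in naive and 1804, 1933 and 2468 in SNT libraries. The gene was thus near the lower end of detection in all naive ganglia and well counted in all injured ones, and the groups lay far apart. The means were 16.4 ± 2.94 (SD, n = 3) and 2069 ± 352 (SD, n = 3), a ratio of 126. On the log2(normalised count + 1) scale the difference was 6.89, with a standard error of 0.18. The lowest SNT library held 91.2 times the normalised count of the highest naive library. Across all 17930 genes tested at 50 M, 30.8% had every SNT library above every naive library, so separation alone was common in these data. Because whole ganglia were sequenced, more cells with the transcript and more transcript per cell cannot be told apart.

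The same picture was seen at both lower depths. At 17 M, 7, 2 and 7 reads in the naive libraries stood against 682, 590 and 839 in the SNT libraries. The normalised means were 5.37 ± 2.69 and 664 ± 90.0 (SD, n = 3 each), a ratio of 124, and 27.9% of genes tested at 17 M had all SNT libraries above all naive ones. At 25 M, 15, 6 and 10 naive reads stood against 1070, 982 and 1460 SNT reads. The normalised means were 10.6 ± 4.13 and 1106 ± 195 (SD, n = 3 each), a ratio of 105, and the share of genes with all SNT libraries above all naive ones was 29.5%. The log2 differences were 6.81 (SE 0.35) at 17 M and 6.63 (SE 0.28) at 25 M. These 3 values come from the same 6 libraries and are not independent of each other.

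The naive side set the precision of the ratio. The 3 naive libraries together held 16 Stac2 reads at 17 M (95% exact Poisson interval 9.15 to 26.0), 31 at 25 M (21.1 to 44.0) and 50 at 50 M (37.1 to 65.9). The SNT libraries held 2111, 3512 and 6234. With the naive reads at the ends of their interval, the ratio would lie between 76.2 and 216 at 17 M, between 73.8 and 154 at 25 M, and between 95.6 and 170 at 50 M. The ratios of 124, 105 and 126 thus differed by less than the counting error of the naive reads. These intervals cover counting error only, and reads copied by PCR are not independent molecules.

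In RPM, which scales each run to an equal total of reads on genes, the level of Stac2 in a library hardly moved between runs once the gene was well counted. SNT library 1 had 111, 110 and 107 RPM at 17 M, 25 M and 50 M. SNT library 2 had 119, 118 and 119, and SNT library 3 had 144, 153 and 150. The highest run was 1.04, 1.01 and 1.06 times the lowest in these libraries. In the naive libraries, with at most 1.51 RPM in any run, the highest run was 1.42 to 2.14 times the lowest.

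**Figure D1:**
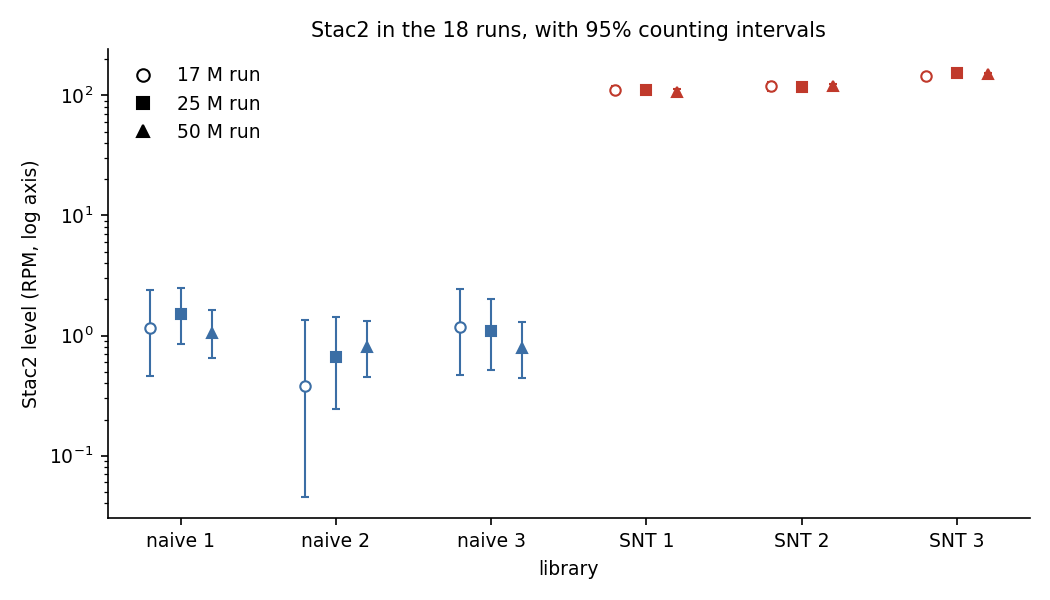
Level of Stac2 in RPM (vertical axis, log scale; the total is all reads on genes in that run) in each of the 6 libraries (horizontal axis), with 1 point for each of the 3 runs and bars for the 95% exact Poisson interval of the read count. The naive points lie between 0.377 and 1.51 with wide intervals, and the SNT points lie between 107 and 153 with intervals mostly smaller than the symbols.

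The spread among SNT libraries, which entered the choice of the gene, is given as a description. With all 3 runs summed, Stac2 had 108 RPM in SNT library 1 (95% exact Poisson interval 105 to 112), 118 in SNT library 2 (115 to 123) and 150 in SNT library 3 (146 to 154). The order was SNT 1, SNT 2, SNT 3 from low to high at every depth. The coefficient of variation (CV, the SD over the mean) of the normalised counts among SNT libraries was 13.5%, 17.7% and 17.0% at 17 M, 25 M and 50 M. In the naive libraries the CV was 50.0%, 39.1% and 17.9%, and counting error alone would give 43.3%, 31.1% and 24.5%. The naive CV was thus above counting error at 17 M and 25 M and below it at 50 M. The order of the naive libraries changed between 25 M and 50 M. With the runs summed, Stac2 had 1.20 RPM in naive library 1 (0.868 to 1.63), 0.698 in naive library 2 (0.443 to 1.05) and 0.936 in naive library 3 (0.641 to 1.32). These intervals overlap, and a difference between naive libraries beyond counting error was not tested.

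Stac2 ranked near the top of all rises. By the ratio of SNT to naive means it was 7th of 16716 genes with naive reads at 17 M, 12th of 17122 at 25 M and 15th of 17817 at 50 M. Genes without any naive read have no ratio, and 113 of the tested genes were of that kind at 50 M, 4 of them with a mean of at least 20 normalised counts. Among genes with a mean of at least 20, the rank of Stac2 by the lowest SNT over the highest naive library was 5, 6 and 7 at 17 M, 25 M and 50 M. Leaving out any 1 library put its rank by ratio at 50 M between 11 and 14, and the ratio between 114 (without SNT library 3) and 140 (without naive library 1). These ranks all lie on 1 side of the 15th place with all libraries, and with the runs summed the rank was 18.

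The genes above it were mostly scarcer. Of the 14 genes with a larger ratio at 50 M, 7 had 3 reads or fewer in every naive library, 13 had a lower naive mean than Stac2 and 12 had a lower SNT mean. Their SNT means ran from 50.9 to 2854 normalised counts, and 5 of the 14 were above Stac2 at every depth. The gene directly above it, ENSRNOG00000005382, had normalised counts of 0, 0 and 1.92 in naive and 87.3, 44.5 and 123 in SNT libraries. The gene directly below it, ENSRNOG00000020655, had 0, 3.01 and 0 in naive and 28.5, 154 and 84.9 in SNT libraries. With at most 3 reads in any naive library, the ratios of both are poorly fixed and so is the exact place of Stac2 between them. Neither has a symbol here.

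Genes with large rises usually varied far more among SNT libraries than Stac2 did. At 50 M, 55 genes had a ratio of at least 16 and a mean of at least 20, limits that were chosen after the values were seen. The CV among their SNT libraries had a median of 38.9% and ran from 6.14% to 106%, and Stac2 with 17.0% had the 10th lowest. At 17 M it had the 5th lowest of 35 such genes and at 25 M the 10th lowest of 42. SNT library 1 was the lowest SNT library for 44 of the 55 genes, Stac2 among them. In that library Stac2 reached 96.1% of the log2 rise that it had on average in SNT libraries 2 and 3, while the median over the 55 genes was 87.1% (range 40.5% to 107%). For 45 of the 55 genes the share was below that of Stac2. A given gap on the log2 scale takes a smaller part of a larger rise, and Stac2 was 15th of the 55 by ratio. The shares therefore depend in part on the size of the rise.

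**Figure D2:**
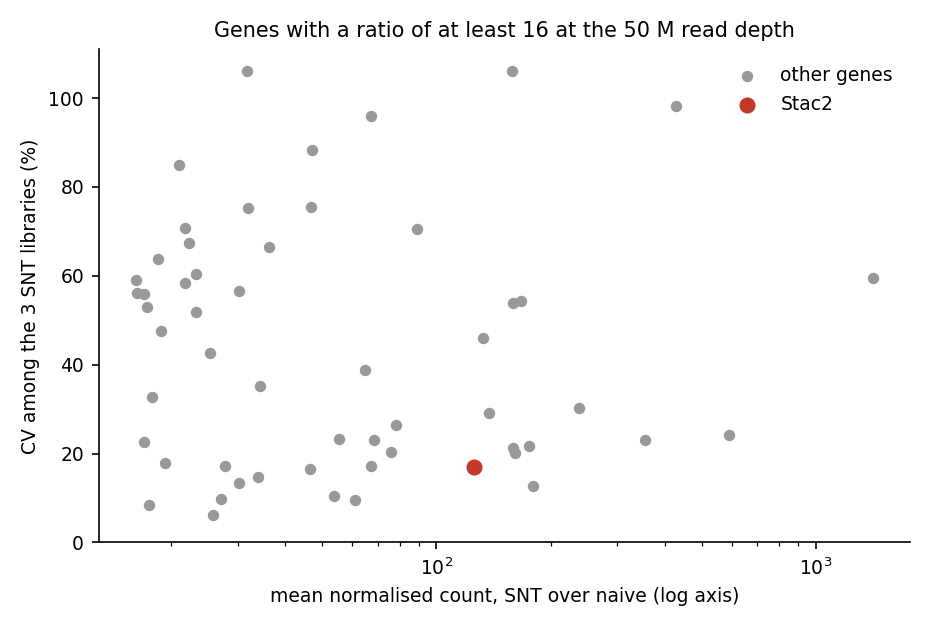
Each point is 1 of the 55 genes with a ratio of at least 16 and a mean of at least 20 normalised counts at 50 M, with the ratio of SNT to naive means on the horizontal log axis and the CV among the 3 SNT libraries on the vertical axis. Stac2 lies at a ratio of 126 and a CV of 17.0%, below the median CV of 38.9%.

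The named genes with the next largest ratios varied more among SNT libraries than Stac2 did. Only 1986 of the listed genes have a symbol here, so these are the largest among that subset, and Postn (ratio 11.3) is not among the 55. Gpnmb, Thbs2 and Postn were picked by their ratio in these same libraries. The adjusted p values given for them are therefore a description and no test. A low spread was not particular to Stac2, whose CV was the 10th lowest of the 55. Tighter genes without a symbol here included ENSRNOG00000006090 (ratio 180, CV 12.7%) and ENSRNOG00000006151 (ratio 61.0, CV 9.46%). Gpnmb, a transmembrane glycoprotein of phagocytes and other cells, had 386, 316 and 370 normalised counts in naive and 5770, 21283 and 7155 in SNT libraries (log2 difference 4.75, SE 0.46, limma adjusted p = 0.00177). Thbs2, a matricellular thrombospondin, had 1003, 622 and 1129 in naive and 7270, 24116 and 16393 in SNT libraries (a 17.3-fold rise, SE 0.44 on the log2 scale, adjusted p = 0.00230). Postn, the extracellular matrix protein periostin, had 208, 134 and 270 against 1286, 3436 and 2176 (3.43, SE 0.39, adjusted p = 0.00243). All 3 peaked in SNT library 2 and were lowest in SNT library 1. Stac2, also lowest in SNT library 1, peaked in SNT library 3, with 1804 and 1933 normalised counts in SNT libraries 1 and 2.

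The genes whose pattern over the 6 libraries was most like that of Stac2 were found by Pearson's r on log2(normalised count + 1) at 50 M, among genes with a symbol and a mean of at least 20. They were Sema6a (r = 0.9991), Atp2b4 (0.9973), RGD1306556 (0.9963), Il1r1 (0.9960), Stmn4 (0.9959) and Mmd (0.9958). All 6 points of each r share the contrast between groups, and a profile with 1 value in naive and another in SNT libraries would have r = 0.9984 with Stac2. Among all 14088 genes with such a mean, 149 had r of at least 0.99 and 1312 had r of at least 0.95. Sema6a ranked 5th among them, with or without a symbol, and its r was 0.9929 at 25 M and 0.9883 at 17 M. Atp2b4, RGD1306556, Il1r1, Stmn4 and Mmd ranked 28th, 47th, 50th, 53rd and 55th, each with r below the 0.9984 of the group profile. The order of the 6 held at 50 M only. At 17 M Mmd (0.9917) and Atp2b4 (0.9895) were above Sema6a, and at 25 M RGD1306556 had r = 0.9299. The likeness is given as a description of 6 libraries. These genes were picked by r over the same libraries, and so largely by the contrast between groups. Their adjusted p values below are therefore a description and no test.

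Sema6a, a transmembrane semaphorin of axon guidance, had 495, 493 and 485 normalised counts in naive and 3532, 3571 and 4317 in SNT libraries. It rose 7.75-fold (log2 difference 2.95, SE 0.09, limma adjusted p = 4.35e-05). SNT library 3 was highest, as for Stac2, and SNT libraries 1 and 2 were alike. Stmn4, a stathmin that regulates microtubules, had 425, 401 and 475 in naive and 2375, 2525 and 3085 in SNT libraries, a 6.14-fold rise (2.61, SE 0.12, adjusted p = 1.13e-04). Il1r1, the signalling receptor for interleukin 1, had 137, 138 and 146 against 509, 487 and 600 (1.91, SE 0.11, adjusted p = 2.74e-04). Mmd, a multipass membrane protein first described in maturing macrophages, had 796, 749 and 762 against 3591, 3068 and 4170. RGD1306556 had 56.4, 55.3 and 51.8 against 181, 192 and 235. SNT library 3 was the highest SNT library for each of these genes, and SNT library 2 was the lowest for Il1r1 and Mmd. Their ratios of 3.72 to 7.75 were all far below that of Stac2.

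The 3 genes at the other end of the order were Ranbp2 (r = -0.9961), Tax1bp1 (-0.9955) and Mnat1 (-0.9950). They too were picked by r over these libraries, so their adjusted p values are a description. Tax1bp1, an autophagy receptor, fell to 0.706 of its naive mean (log2 difference -0.50, SE 0.07, adjusted p = 0.00396). Mnat1, a part of the CDK-activating kinase, fell to 0.577 (-0.79, SE 0.08, adjusted p = 0.00191). Ranbp2, a nucleoporin, was at 0.907 of its naive mean and did not pass the test (-0.14, adjusted p = 0.128), and its difference was 0.02 when libraries were scaled to equal totals. It passed in 2 of 16 alternatives, DESeq2 and the fit without SNT library 1 (adjusted p between 0.0436 and 0.811 over the alternatives). A strongly negative r thus went with small differences as well.

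**Figure D3:**
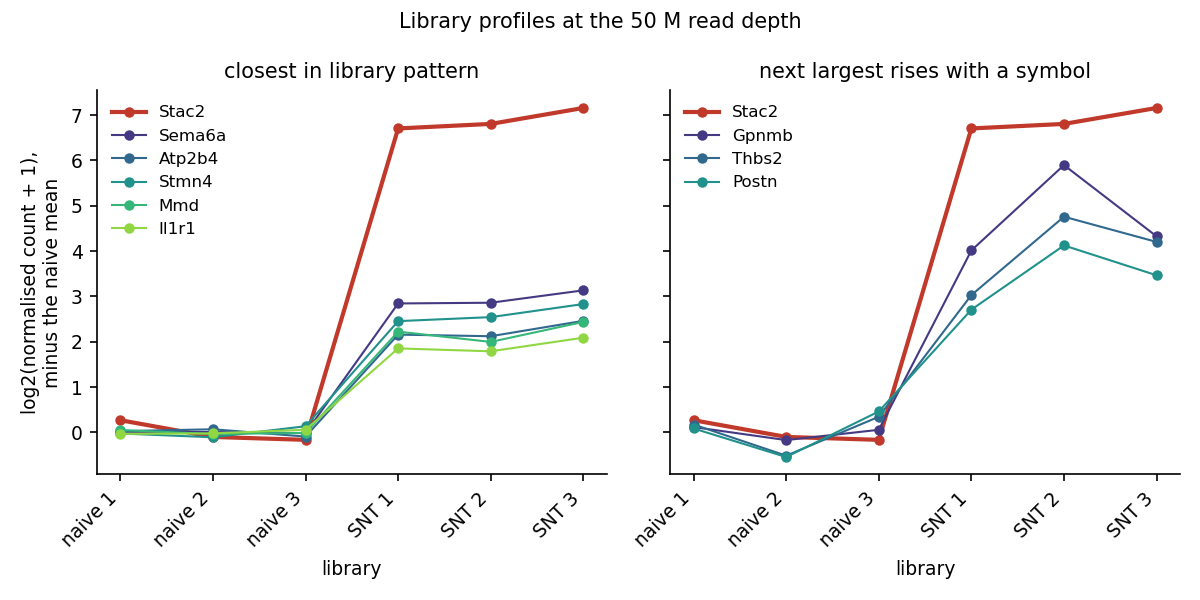
Log2(normalised count + 1) at 50 M minus the mean of the 3 naive libraries, on the vertical axis, for each library on the horizontal axis, with Stac2 as the thick red line in both panels. Left, 5 of the 6 genes with a symbol that had the highest r with Stac2 have smaller rises, with SNT library 3 the highest of the SNT libraries in each. Right, Gpnmb, Thbs2 and Postn peak in SNT library 2, where Stac2 does not.

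Of a list of 66 genes of calcium channels, their regulators and calcium stores, 21 had a symbol here and all 21 were tested at each depth. At 50 M 4 rose, 13 fell and 4 did not pass the test, with a median log2 difference of -0.63 against 0.01 over all genes tested. Over all genes tested at 50 M, 29.2% were called higher and 29.4% lower by limma at an FDR of 0.1. Among the 1985 genes with a symbol other than Stac2, which include these 21, 35.3% were called higher and 36.2% lower. Each of the 21 genes had the same call at 17 M and 25 M, where 26.0% and 27.7% of all genes tested were called higher and 26.4% and 28.3% lower.

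Of the pore-forming channel subunits, Cacna1d, which forms an L-type channel of the kind STAC proteins bind, had 359, 376 and 327 normalised counts in naive and 311, 161 and 217 in SNT libraries. It fell to 0.649 of its naive mean (log2 difference -0.67, SE 0.23, adjusted p = 0.0468). The highest SNT library was just below the lowest naive library, and the call was lost without naive library 1, naive library 2 or SNT library 3 (adjusted p between 0.00154 and 0.126 over the alternatives tried). Cacna1b, the pore of the N-type channel, had a ratio of 0.972 and did not pass the test (adjusted p = 0.823), with naive libraries between 2830 and 3836 and SNT libraries between 2491 and 3997. Cacna2d2, an auxiliary alpha2delta subunit, fell from 606, 732 and 481 to 419, 154 and 191 (-1.37, SE 0.37, adjusted p = 0.0207). Cacng4, of the gamma subunit and AMPA receptor regulator family, was at 0.891 (adjusted p = 0.310).

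Calm3, which encodes the calcium sensor calmodulin, had 15008, 15903 and 14600 normalised counts in naive and 10178, 6863 and 8039 in SNT libraries. It fell to 0.551 of its naive mean (log2 difference -0.88, SE 0.15, adjusted p = 0.00557). Only reads with a unique position in the genome had been kept, so that reads shared with close paralogs are not in these counts. Cabp1, a neuronal calcium-binding protein that regulates calcium channels, fell to 0.392 (log2 difference -1.41, SE 0.24, adjusted p = 0.00517), the lowest ratio of the list. Of the calcium-calmodulin kinase II genes, Camk2b fell to 0.593 and Camk2g to 0.453, while Camk2d rose 2.09-fold, from 3329, 3459 and 3355 to 6571, 6993 and 7675 (1.06, SE 0.08, adjusted p = 9.19e-04). The catalytic calcineurin genes Ppp3ca and Ppp3cb fell to 0.586 and 0.511, and Ppp3cc did not pass the test (log2 difference -0.02, adjusted p = 0.880). Akap6, an anchoring protein for protein kinase A, was at 0.980 (adjusted p = 0.859).

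Among genes of release and removal of calcium, Ryr3, a ryanodine receptor, fell to 0.602 (log2 difference -0.75, SE 0.16, adjusted p = 0.0101). Itpr2, an inositol trisphosphate receptor, rose 1.81-fold (0.86, SE 0.15, adjusted p = 0.00544). Fkbp1a, which binds ryanodine receptors, rose 1.44-fold (0.52, SE 0.09, adjusted p = 0.00532). ASPH, whose products include the junctional protein junctin, fell to 0.649, and Atp2a2, the calcium pump of the endoplasmic reticulum, to 0.676. Of the plasma membrane calcium pumps, Atp2b1 fell to 0.722 (-0.48, SE 0.13, adjusted p = 0.0218). Atp2b4 rose 4.77-fold, from 524, 539 and 482 to 2297, 2241 and 2836 (2.25, SE 0.11, adjusted p = 1.32e-04). It had the largest rise of the 21. Among genes with a symbol only Sema6a was closer to Stac2 in library pattern, but among all genes Atp2b4 ranked 28th.

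**Figure D4:**
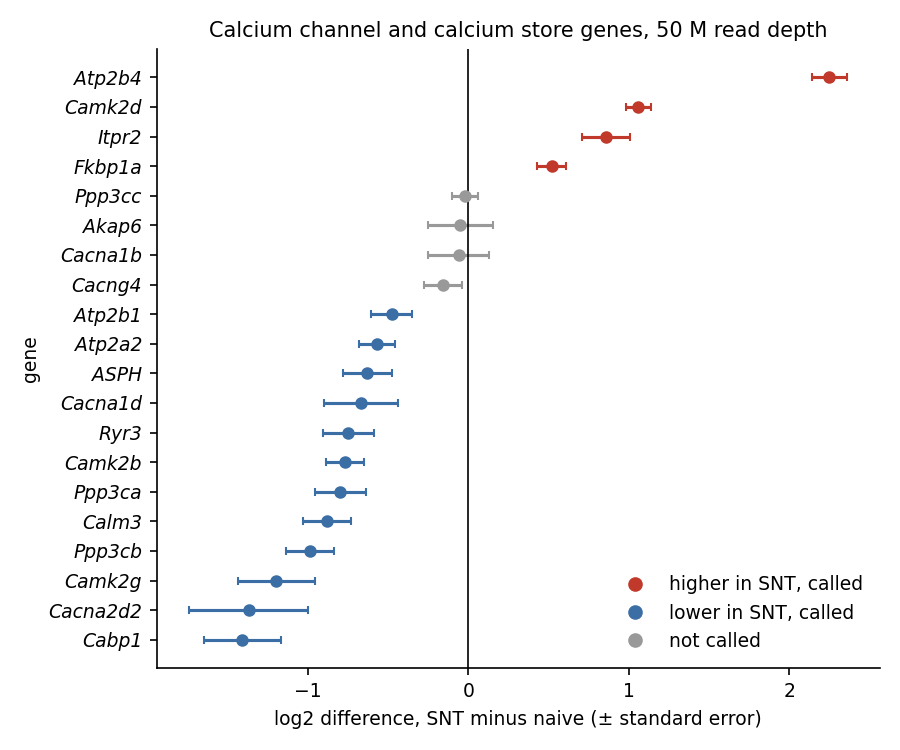
Log2 difference between SNT and naive libraries at 50 M (horizontal axis, ± standard error) for 20 of the 21 matched genes of the calcium list, in order of the difference. The 4 red points were called higher, the 12 blue points lower, and the 4 grey points were not called at an FDR of 0.1.

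A list of 39 genes known as induced in sensory neurons by axotomy had 5 members with a symbol here. The list was drawn up with earlier results of these data known, so its direction is a description and no test. At 50 M all 5 rose, with a median log2 difference of 1.06. Of all genes tested 29.2% were called higher, and of those with a symbol 35.3%. Besides Sema6a and Stmn4 these were Klf6, a zinc finger transcription factor (2.10-fold, log2 difference 1.06, SE 0.10, adjusted p = 0.00185), Lifr, a receptor of the interleukin 6 family (1.51-fold, 0.58, SE 0.16, adjusted p = 0.0240), and Tuba1a, an alpha tubulin (1.38-fold, 0.46, SE 0.11, adjusted p = 0.0122). Klf6 had 566, 574 and 553 normalised counts in naive and 1019, 1246 and 1298 in SNT libraries. Tuba1a did not pass the test at 25 M, where 4 of the 5 rose and 27.7% of all genes tested were called higher. Tubulin genes are close paralogs, so that the count of Tuba1a is uncertain.

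Symbols were at hand only for genes that had passed the study's filter on intronic reads. The presence of matched markers therefore says little about the tissue. Of 22 sensory neuron markers 9 had a symbol here, and at 50 M 6 were called lower, none higher and 3 not called. The shares over all genes tested were 29.4% lower and 29.2% higher, and over genes with a symbol 36.2% and 35.3%. Their summed normalised counts were 381040 to 436188 in naive libraries and 269021, 142401 and 177566 in SNT libraries 1, 2 and 3. Nefh, the heavy neurofilament chain, made up a large part of these sums, with a naive mean of 203041 and 95133, 32294 and 40830 in the SNT libraries. Without it the other 8 markers summed to 194226 to 220360 in naive libraries and to 173887, 110107 and 136736 in SNT libraries. Prph, the neuronal intermediate filament peripherin (ratio 0.829, adjusted p = 0.203), Elavl3, a neuronal RNA-binding protein (0.802, adjusted p = 0.193), and Stmn2, a stathmin of growing axons (1.13, adjusted p = 0.476), were not called, though Prph and Elavl3 passed without SNT library 1. SNT library 1 had the highest of the SNT sums, with and without Nefh. This did not hold for every marker as nearness to naive. Stmn2 was farthest from naive in SNT library 1, with 64480 normalised counts against 48028 to 54679 in naive libraries. Of 15 Schwann and satellite glial markers 6 were matched, 3 higher and none lower, with sums of 286241 to 525985 in naive and 348377 to 438209 in SNT libraries. Of 17 macrophage and leukocyte markers 3 were matched and all 3 were higher, with sums of 6204 to 6567 in naive and 12203 to 15396 in SNT libraries. The leukocyte marker Inpp5d, an inositol phosphatase, lost its call in 5 of 16 alternatives (without any 1 of the 3 naive libraries, without SNT library 3, and without the trend in the variance prior), with adjusted p up to 0.178. No matched marker was at 0, which the filter on intronic reads made nearly certain. None of 15 skeletal muscle markers was matched. The part of these cell types in the values of Stac2 or of the calcium list was not tested.

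Counts were made without regard to strand, so that transcripts of either strand over the exons of Stac2 would be counted with it. In the RefSeq annotation of the GRCr8 assembly, which is not the build of the tables, Stac2 lies between Cacnb1, a beta subunit of voltage-gated calcium channels, and the long non-coding RNA gene LOC102548674. Rpl19 and Fbxl20 lie next to these, and no annotated gene overlaps Stac2 there.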

How the data were processed

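RNA-seq was performed on poly(A) RNA of L5 DRG from SNT and naive rats. Per the study's methods, Bowtie placed the short reads on the Rn5 assembly, only uniquely placed reads were kept, and exonic reads per Ensembl gene were counted without strand. The deposited signal values are counts that the authors divided by a DESeq size factor, in 1 table for each depth. Read counts were recovered from the step of each column, and 100.0% of values were whole within 1e-06 reads. All 18 columns were used.

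Stac2 and the gene lists were chosen with earlier results of these data known. The comparison of SNT with naive used R 4.3.3 and limma 3.58.1, applied to log2(normalised count + 1) with a variance prior following mean expression and no covariate. The 3 SNT and 3 naive libraries of each depth were fitted alone. Genes with reads in at least 3 of 6 libraries were tested, two-sided, with Benjamini-Hochberg adjustment over all of them and an FDR threshold of 0.1. The script was tested on simulated data. Alternatives used edgeR 4.0.16 and DESeq2 1.42.0 on the recovered counts. A ratio is the SNT over the naive mean of normalised counts.

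Named genes were Stac2, the matched members of the calcium and axotomy lists, the 6 genes with a symbol highest and the 3 lowest in r with Stac2, its neighbours in rank, and the 3 genes with a symbol next in ratio. The markers given by name were named after its values were seen. Symbols came from a shortened supplementary table and covered 1986 of the listed genes, and no other source of symbols was used. The genes with a symbol had passed the study's filter on intronic reads. Some matched list members enter the counts and are not reported here by their values. The exon arrays and intronic reads were not analysed here.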

Additional observations from a re-analysis of the deposited data

How the results depend on the processing

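Stac2 was higher in SNT at each depth under all alternatives tried. With a pseudocount of 5, which is close to the naive counts themselves, its log2 difference was 6.04 (17 M), 6.18 (25 M) and 6.59 (50 M). Leaving out each library in turn gave 6.38 to 7.02 (17 M), 6.35 to 6.89 (25 M) and 6.76 to 7.03 (50 M). At 50 M it was 6.98 with edgeR, 6.98 with DESeq2 and 7.05 with equal library totals, and 6.86 with the runs summed, where the rank by ratio was 18. Genes called without 1 library numbered 6787 to 9700 (17 M), 7584 to 10406 (25 M) and 8416 to 11346 (50 M). The calls of the calcium list then numbered 16 to 17 and those of the axotomy list 5. The rank was then 11 to 14, against 15 with all libraries.

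Against 10497 genes called by limma at 50 M, edgeR called 10366 and DESeq2 9788. Equal totals shifted the median log2 difference of all genes by 0.15 at each depth and raised the share of calls that were higher in SNT from 49.8% to 62.5% at 50 M, from 49.5% to 62.5% at 25 M and from 49.6% to 62.5% at 17 M. Of the 21 calcium genes, 20 kept their side of the threshold in all 16 alternatives at 50 M, Cacna1d being the exception.

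Replicate numbers were shared by the groups but came from different animals, and deviations of same-numbered libraries at 50 M correlated at 0.05, -0.35 and 0.18, so the numbers were not taken as pairs. Not every library correlated best with its own number. With a replicate block the Stac2 difference stayed at 6.89, and 9459 genes were called at 50 M, 8601 at 25 M and 7867 at 17 M, with 17 and 5 calls in the lists.

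Depth limits the naive level of Stac2, which rests on 50 reads in 3 libraries at 50 M. The matched calcium and axotomy genes are those with a symbol and not a complete pathway.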
